A study of Homo sapiens with 6 samples.

Results

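NRF2, the transcription factor encoded by NFE2L2, its inhibitor KEAP1 and 7 genes known as NRF2 targets (NQO1, HMOX1, GCLC, GCLM, TXNRD1, SRXN1 and SLC7A11) were examined in RNA-seq of H1650, an established human lung adenocarcinoma cell line. The 9 genes were chosen by name, with earlier results of these data known, so counts among them are a description and not a test. All 9 are among the 15897 genes of the deposited expression table. Expression was given in 6 libraries as FPKM, a fragment number scaled to gene length and to the size of the library. The 3 control libraries carry the genotype label wild type, and the 3 shSETD2 libraries are labelled with a short hairpin RNA against SETD2, the methyltransferase that trimethylates lysine 36 of histone H3. All 6 are labelled as H1650 cells of lung, and no drug or oxidant treatment is named for either group. The study describes stable lines made with lentivirus and 3 hairpin constructs, but it is not stated which construct, if only 1, each shSETD2 library carried, nor whether the control cells carried a vector. The labels do not say that the libraries came from separate cultures, so the p-values measure the spread between these libraries, which may be technical.

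In unstressed cells KEAP1 binds NRF2 as the adaptor of a CUL3 ubiquitin ligase and sends it to the proteasome. Oxidants and electrophiles modify cysteines of KEAP1, NRF2 then accumulates, pairs with a small MAF protein and binds antioxidant response elements in the DNA near its targets. These targets rebuild glutathione and thioredoxin, supply NADPH, reduce quinones and break down haem. In lung adenocarcinoma the pathway is known for being switched on by mutations of KEAP1 or NFE2L2.

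SETD2, the gene aimed at, was not called different. Control libraries 1, 2 and 3 gave 18.0, 10.2 and 17.6 FPKM for SETD2, and shSETD2 libraries 1, 2 and 3 gave 8.97, 8.09 and 12.2. Control library 2 lay within the range of the shSETD2 group (log2 fold change -0.58, SE 0.24, adjusted p = 0.0641, where SE is the standard error of limma). It was called lower without control library 2 (-0.83, adjusted p = 0.00648) and without shSETD2 library 3 (-0.73, adjusted p = 0.0418). It did not pass when any other single library was left out (adjusted p from 0.149 to 0.179). With median ratio scaling, described below, the log2 fold change of SETD2 was -0.25 and did not pass (adjusted p = 0.376). The libraries are therefore named by their labels.

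The correlation between libraries on the log2(FPKM + 1) scale (Pearson's r over all listed genes, which are not replicates) ranged from 0.985 to 0.991 within groups and from 0.756 to 0.761 between them. Markers of cell type also differed between the groups. Of 10 lung epithelial markers the table lists 2, MUC1 and NKX2-1, which went opposite ways. NKX2-1 averaged 1.65 FPKM in the control libraries and was listed at 0 in every shSETD2 library, while MUC1 averaged 0.639 and 2.65 FPKM. The summed FPKM of the lung list was 2.11 to 2.46 in the control and 2.19 to 2.94 in the shSETD2 libraries. General epithelial markers (9 of 10 listed) summed to 14.4 to 16.4 against 406.1 to 458.9, led in both groups by KRT18 (10.04 and 254.6 FPKM) and KRT8 (2.86 and 93.9). The other listed markers were looked at after their values were seen. KRT7 went the same way (0.0208 and 81.9 FPKM), as did ELF3 (0.221 and 4.23), ESRP1 (0.0176 and 0.803) and CLDN4 (0.067 and 0.175). CDH1 (1.27 and 0.0120), EPCAM (0.710 and 0.22) and CLDN7 (0.192 and 7.97e-06) were lower with shSETD2. The sum is thus carried by keratins, and the other markers went both ways. Markers of embryonic kidney lines (9 of 9 listed) summed to 90.0 to 96.6 against 57.2 to 67.2. NEFM and LIN28B led this list in the control libraries (37.8 and 21.5 FPKM) and were listed at 0 in every shSETD2 library, where PAX8 was highest (30.8 FPKM). PAX8 averaged 0.0172 FPKM in the control libraries. Fibroblast markers (4 of 8 listed) summed to 4.04 to 4.54 against 0.292 to 0.340, and blood cell markers (3 of 8 listed) to 1.46 to 1.92 against 1.91 to 2.24. The part of these differences in the results that follow was not tested, and in bulk RNA fewer cells of a type and less RNA per cell cannot be told apart.

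Of the 9 genes, 7 rose with shSETD2 (adjusted p under 0.05, limma), 0 fell, and 2, GCLC and SLC7A11, did not pass. The test was run on log2(FPKM + 1) for 14068 genes that averaged 0.5 FPKM or more, which include all 9. Among all genes tested, 26.8% were called higher and 51.8% lower, with a median log2 fold change of -0.29, against a median of 1.15 for the 9 genes. The groups did not overlap for 8 of the 9 genes, with shSETD2 above control for 7 and below for 1, where the shares over all genes tested were 27.9% and 53%. Scaling each library by its median ratio to the geometric mean moved the median of all genes from -0.29 to 0.0022. A median near 0 follows from how this scaling is built and is not a separate result. With this scaling, 38.2% of all genes were called higher and 37.8% lower. The share of higher genes among those called went from 34.1% to 50.3%, a balance that goes with the centred median. Of the 9 genes, 8 were then called higher.

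**Figure D1:**
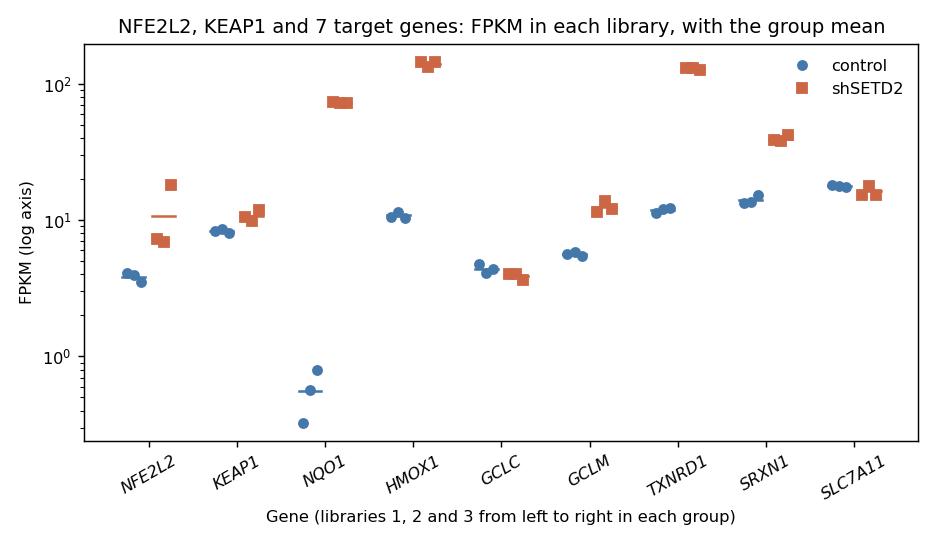
FPKM of the 9 genes on a log axis in each of the 3 control (circles) and 3 shSETD2 libraries (squares), with lines for group means. NQO1 lies between 0.327 and 0.789 FPKM in the control libraries and between 72.0 and 73.6 in the shSETD2 libraries, while the points of SLC7A11 overlap between the groups.

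Antioxidant response elements share the core TGACNNNGC, in which N stands for any base. The core was searched on both strands from 1000 bases before to 100 bases after the start of the canonical transcript (GENCODE 44 on GRCh37), and the matches found near the 9 genes are shown to set the letters beside the levels that follow. They are written 5′ to 3′ on the strand that reads as the core, with the core in capitals.
NQO1: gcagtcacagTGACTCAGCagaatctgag
GCLM: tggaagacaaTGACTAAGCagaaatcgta
TXNRD1, distal: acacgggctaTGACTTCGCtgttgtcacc
TXNRD1, proximal: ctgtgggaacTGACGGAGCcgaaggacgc
GCLC: aaatatgtgtTGACAGAGCaatgacctgt

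The NQO1 sequence is chr16:69760900-69760928 on the minus strand, and its core begins 455 bases before the start. The GCLM sequence is chr1:94375002-94375030 on the plus strand, opposite to the gene, with the core 34 bases before the start. The TXNRD1 sequences are chr12:104609448-104609476 on the plus strand and chr12:104609539-104609567 on the minus strand, 99 and 8 bases before the start, and the latter core reaches the first transcribed base. The GCLC sequence is chr6:53410751-53410779 on the plus strand, opposite to the gene, 870 bases before the start. The windows of 4 of the 9 genes (44.4%) held a match, against 36.8% of the windows of 13777 genes tested, so a match of this core is common. The form TGACTCAGC of NQO1, which also contains TGACTCA, the letters bound by AP-1 factors, was in 1.28% of these windows. No match of the core was in the windows of NFE2L2, KEAP1, HMOX1, SRXN1 or SLC7A11, which says only that these letters are not in these windows. A match is a description of sequence and not a bound site.

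NQO1 changed most of the 9 genes. It encodes a reductase that converts quinones to hydroquinones without a radical step, and its gene (ENSG00000181019.12_2) spans 69740899 to 69760854 of chromosome 16, minus strand, in GRCh37, the build of all positions given here. Control libraries 1, 2 and 3 gave 0.327, 0.568 and 0.789 FPKM, and shSETD2 libraries 1, 2 and 3 gave 73.6, 72.8 and 72.0. The control libraries were near the bottom of the table, where 94.8% of the genes tested had a higher control mean, and 2.45% had a higher shSETD2 mean. The group means were 0.561 ± 0.231 and 72.8 ± 0.825 FPKM (SD, n = 3), a ratio of 129.7. On the log2(FPKM + 1) scale, which understates changes of low genes, the difference passed the test (log2 fold change 5.57, SE 0.11, adjusted p = 7.87e-08) and had rank 46 from the highest of all genes tested. With a pseudocount of 0.1 the log2 fold change was 6.85.

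HMOX1 encodes the inducible haem oxygenase, which opens haem into biliverdin, carbon monoxide and iron, and lies on the plus strand of chromosome 22 from 35776354 to 35790207. For HMOX1, 10.6, 11.5 and 10.4 FPKM were measured in the control and 144.9, 133.8 and 144.4 in the shSETD2 libraries, in the order of their numbers. The groups stood far apart, with means of 10.8 ± 0.607 and 141.0 ± 6.27 FPKM (SD, n = 3), a ratio of 13.0 (log2 fold change 3.58, SE 0.054, adjusted p = 3.88e-08). In the shSETD2 libraries 0.981% of the genes tested had a higher mean than HMOX1.

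TXNRD1 encodes the cytosolic thioredoxin reductase, a selenoprotein that uses NADPH to keep thioredoxin reduced. Its values were 11.3, 12.1 and 12.3 FPKM in the control against 130.5, 131.3 and 127.1 in the shSETD2 libraries, without overlap. The means were 11.9 ± 0.523 and 129.6 ± 2.26 FPKM (SD, n = 3), a ratio of 10.9 (log2 fold change 3.34, SE 0.042, adjusted p = 2.29e-08). EID3, a gene on the same strand inside the span of TXNRD1 (chromosome 12, 104609557 to 104744083), was at 2.80 ± 0.360 and 24.8 ± 3.54 FPKM (SD, n = 3). Of the 3860 exon bases of the canonical TXNRD1 transcript, 0 lie within the span of EID3. EID3 was looked at after its values were seen, and how reads were divided between the 2 genes is not given in the sources used here.

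SRXN1 encodes sulfiredoxin, which restores overoxidised peroxiredoxins. The control libraries had 13.4, 13.7 and 15.3 FPKM and the shSETD2 libraries 39.0, 37.9 and 41.9, again without overlap. The means were 14.2 ± 1.02 and 39.6 ± 2.09 FPKM (SD, n = 3), a ratio of 2.80 (log2 fold change 1.42, SE 0.065, adjusted p = 2.70e-06). SRXN1 lies on chromosome 20 from 627259 to 634014, minus strand, and the 372 genes of this chromosome that were tested had a median log2 fold change of 0.396. Of its 2528 exon bases, 2517 lie within the span of another annotated gene of the same strand, ENSG00000270299, so its level is uncertain to the extent that reads were shared.

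Glutathione synthesis is limited by glutamate-cysteine ligase, made of a catalytic subunit encoded by GCLC (chromosome 6, 53362139 to 53481768, minus strand) and a modifier subunit encoded by GCLM (chromosome 1, 94350761 to 94375012, minus strand), and by the supply of cysteine. GCLM passed the test and GCLC did not. GCLM was measured at 5.68, 5.86 and 5.46 FPKM in the control libraries and 11.5, 13.7 and 12.0 in the shSETD2 libraries. All shSETD2 values of GCLM were above the control values, with means of 5.67 ± 0.197 and 12.4 ± 1.18 FPKM (SD, n = 3), a ratio of 2.19 (log2 fold change 1.00, SE 0.073, adjusted p = 2.38e-05). GCLC was measured at 4.77, 4.10 and 4.37 FPKM in the control libraries and 4.01, 4.04 and 3.61 in the shSETD2 libraries. All shSETD2 values of GCLC were below the control values, but by little in the nearest pair, and the difference did not pass (log2 fold change -0.15, SE 0.070, adjusted p = 0.094, 95% interval -0.32 to 0.022). Its sign turned with median ratio scaling (0.14, adjusted p = 0.107) and with quantile normalization (0.077, adjusted p = 0.348).

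SLC7A11 (chromosome 4, 139085251 to 139163503, minus strand) encodes the cystine and glutamate exchanger that brings cystine into the cell, and it is known to be induced by ATF4 as well as by NRF2. It had the highest mean FPKM of the 9 genes in the control libraries, with values of 18.0, 17.8 and 17.6, against 15.4, 18.0 and 15.4 in shSETD2 libraries 1, 2 and 3. Library 2 of the shSETD2 group lay among the control libraries and the other two below them. The difference did not pass (log2 fold change -0.13, SE 0.066, adjusted p = 0.12, 95% interval -0.29 to 0.033). It was -0.20 without shSETD2 library 2 (adjusted p = 0.0044), -0.22 with quantile normalization (adjusted p = 0.0161) and 0.21 with median ratio scaling (adjusted p = 0.0238), so both its sign and its call depended on these choices. Of its 9645 exon bases, 7921 lie within the span of SLC7A11-AS1 on the opposite strand, as do 710 of 2521 of NQO1, 450 of 3785 of GCLC and 196 of 2446 of NFE2L2 within antisense genes. The library kit keeps strand, but the strand setting of the authors' quantification is not given in the sources used here.

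**Figure D2:**
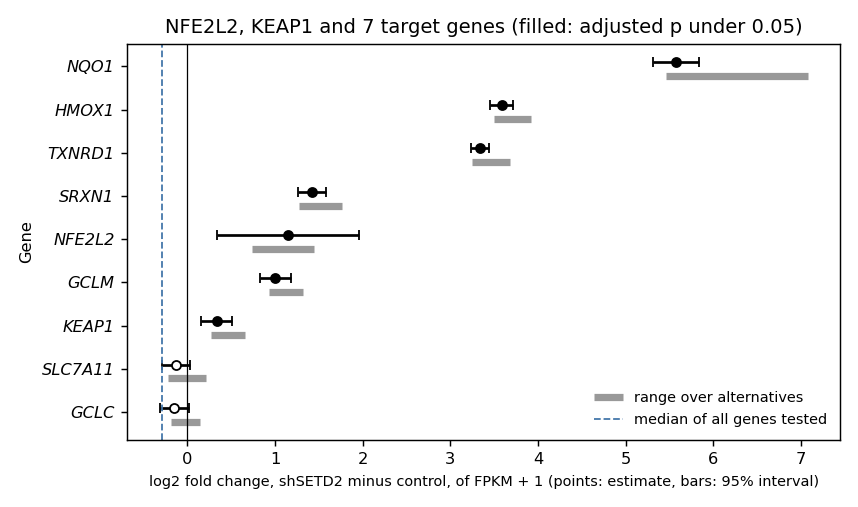
Log2 fold change of FPKM + 1 (shSETD2 minus control) of the 9 genes, as points with 95% intervals from limma, over grey bars for the range under the alternative settings. NQO1 (5.57), HMOX1 (3.58) and TXNRD1 (3.34) lie highest, the intervals of SLC7A11 and GCLC include 0, and the dashed line marks the median of all genes tested, -0.29.

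NFE2L2 itself (chromosome 2, 178092323 to 178257425, minus strand) had 4.07, 3.98 and 3.51 FPKM in the control libraries and 7.28, 6.86 and 18.0 in shSETD2 libraries 1, 2 and 3. The groups did not overlap, but shSETD2 library 3 stood far above the other two of its group. The means were 3.85 ± 0.301 and 10.7 ± 6.32 FPKM (SD, n = 3), and the difference passed the test (log2 fold change 1.15, SE 0.34, adjusted p = 0.0183). Without shSETD2 library 3 the log2 fold change was 0.74 (adjusted p = 4.62e-04), and without control library 3 it was 1.10 and did not pass (adjusted p = 0.0557). Of 10978 genes tested with an FPKM of 1 or more in shSETD2 libraries 1 and 2, 15 (0.137%) had library 3 at least as far above the mean of these 2 libraries as NFE2L2, by 1.35 on the log2 scale. The target genes did not share this position of library 3. The same log2 ratio was -0.024 for NQO1, -0.043 for TXNRD1, 0.051 for HMOX1, -0.066 for GCLM and 0.13 for SRXN1.

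KEAP1 (chromosome 19, 10596796 to 10614417, minus strand) had 8.33, 8.63 and 7.99 FPKM in the control and 10.5, 9.94 and 11.9 in the shSETD2 libraries. The inhibitor was thus also higher, by the smallest log2 fold change of the 7 genes that passed, with means of 8.31 ± 0.320 and 10.8 ± 0.999 FPKM (SD, n = 3; log2 fold change 0.33, SE 0.072, adjusted p = 0.00483). With median ratio scaling the log2 fold change of KEAP1 was 0.66.

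Levels per gene length gave a different order in the groups. In the control libraries the mean FPKM fell from SLC7A11 (17.8) through SRXN1 (14.2), TXNRD1 (11.9), HMOX1 (10.8), KEAP1 (8.31), GCLM (5.67), GCLC (4.41) and NFE2L2 (3.85) to NQO1 (0.561). Of these neighbours, TXNRD1 and HMOX1 overlapped in their libraries. In the shSETD2 libraries the order was HMOX1 (141.0), TXNRD1 (129.6), NQO1 (72.8), SRXN1 (39.6), SLC7A11 (16.2), GCLM (12.4), KEAP1 (10.8), NFE2L2 (10.7) and GCLC (3.89). Here GCLM overlapped KEAP1, and KEAP1 overlapped NFE2L2.

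Ratios of FPKM between 2 genes of the same library do not change when a library is multiplied by a factor. For each of the 5 ratios computed the groups did not overlap, and the exact two-sided permutation test gave p = 0.1, the smallest that 3 libraries against 3 allow, so no ratio can pass 0.05 here. GCLM over GCLC was 1.19, 1.43 and 1.25 in the control and 2.86, 3.40 and 3.33 in the shSETD2 libraries, a difference of 1.31 in the mean log2 ratio. TXNRD1 over GCLC went from 2.38, 2.96 and 2.82 to 32.6, 32.5 and 35.2, a difference of 3.63. NQO1 over GCLC was 0.0685, 0.139 and 0.181 in the control and 18.4, 18.0 and 19.9 in the shSETD2 libraries, a difference of 7.29. All 3 target genes thus stood higher against GCLC in every shSETD2 library than in any control library.

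NFE2L2 over KEAP1 was 0.488, 0.461 and 0.439 in control libraries 1, 2 and 3 and 0.694, 0.690 and 1.52 in shSETD2 libraries 1, 2 and 3. The factor was below its inhibitor in FPKM in every library but shSETD2 library 3. The difference in the mean log2 ratio was 0.96, and 0.58 without that library. BACH1, a repressor that competes with NRF2 for the same DNA elements and is known for holding down HMOX1, stood over NFE2L2 at 2.71, 2.73 and 3.17 in the control libraries. In shSETD2 libraries 1, 2 and 3 this ratio was 1.39, 1.60 and 0.521, a difference of -1.45 in the mean log2 ratio and of -0.94 without library 3.

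**Figure D3:**
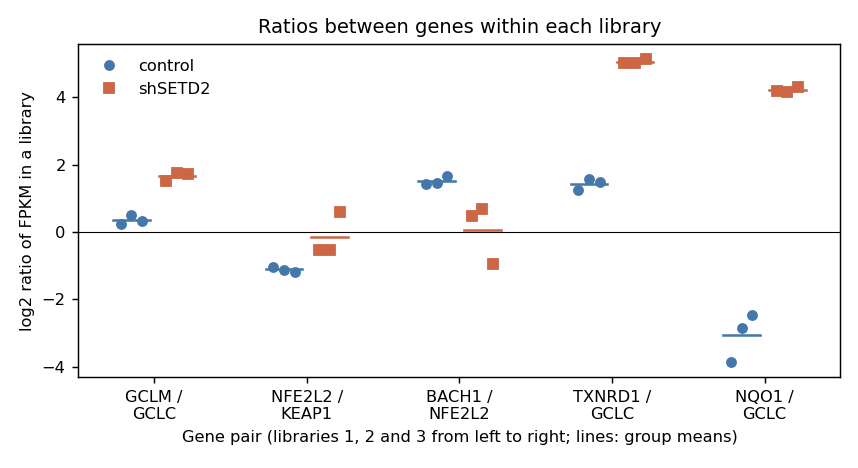
Log2 ratio of the FPKM of 2 genes in each control (circles) and shSETD2 library (squares), with lines for group means. The groups do not overlap for any of the 5 pairs, and shSETD2 library 3 lies apart in the pairs that hold NFE2L2.

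The partners and regulators of NRF2 were divided. Of 16 such genes, all tested, 6 rose and 4 fell with shSETD2 (37.5% and 25%, where 26.8% and 51.8% of all genes tested did), with a median log2 fold change of 0.070. Under median ratio scaling 10 rose and 2 fell, where the shares over all genes were 38.2% and 37.8%. The 3 small MAF genes, whose proteins pair with NRF2 on DNA, all rose. MAFF had 0.995, 1.06 and 0.978 FPKM in the control and 4.50, 15.6 and 4.51 in shSETD2 libraries 1, 2 and 3, with library 2 apart (log2 fold change 1.98, SE 0.43, adjusted p = 0.00495). MAFK rose from 2.88 ± 0.533 to 7.07 ± 0.729 FPKM (SD, n = 3) and MAFG from 7.88 ± 0.611 to 12.5 ± 0.266. SQSTM1 encodes p62, an autophagy receptor that binds KEAP1 and is itself an NRF2 target. It had 10.5, 11.1 and 11.6 FPKM in the control and 49.9, 52.3 and 80.2 in shSETD2 libraries 1, 2 and 3 (log2 fold change 2.32, SE 0.18, adjusted p = 3.04e-05). As for NFE2L2, shSETD2 library 3 was the highest of its group.

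Of the genes that hold NRF2 activity down, BACH1 was at 11.0 ± 0.132 and 10.2 ± 0.798 FPKM (SD, n = 3) and did not pass (adjusted p = 0.151). Its log2 fold change of -0.11 turned to 0.22 with median ratio scaling (adjusted p = 0.0143) and was -0.16 without shSETD2 library 2 (adjusted p = 0.0292). BACH2, its paralog, fell from 1.99 ± 0.156 to 0.0753 ± 0.0528 FPKM (SD, n = 3). CUL3, the scaffold of the KEAP1 ligase, was at 6.99 ± 0.431 and 6.20 ± 0.421 FPKM (SD, n = 3; adjusted p = 0.0771), with a log2 fold change of -0.15 that was -0.20 without shSETD2 library 2 (adjusted p = 0.0332) and 0.16 with median ratio scaling. RBX1, the ring subunit of that ligase, fell from 13.7 ± 0.249 to 11.3 ± 0.443 FPKM (SD, n = 3), but with median ratio scaling its log2 fold change was 0.073 and did not pass (adjusted p = 0.176).

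BTRC encodes the adaptor of a KEAP1-independent ligase for NRF2 and fell from 10.9 ± 0.469 to 3.94 ± 0.0503 FPKM (SD, n = 3; log2 fold change -1.27, adjusted p = 1.39e-06). Its paralog FBXW11 fell from 18.3 ± 1.37 to 13.0 ± 1.29, a change that did not pass with median ratio scaling (adjusted p = 0.197). GSK3B, the kinase that marks NRF2 for BTRC, was at 14.7 ± 0.456 and 14.8 ± 1.06 FPKM (SD, n = 3; adjusted p = 0.893), and it passed as higher with median ratio scaling (0.34, adjusted p = 0.00159). SYVN1, which encodes a ligase of the endoplasmic reticulum that also takes up NRF2, was at 9.35 ± 0.587 and 9.05 ± 2.15 (adjusted p = 0.726). The related factor NFE2L3 rose from 3.98 ± 0.592 to 6.36 ± 0.873 FPKM (SD, n = 3). NFE2L1, which shares the DNA element of NRF2, was at 12.4 ± 3.97 and 21.2 ± 8.09 with overlapping groups (adjusted p = 0.103), and it passed without shSETD2 library 1 (adjusted p = 0.0209) and with median ratio scaling (adjusted p = 0.031). Of the coactivators, EP300 rose from 17.3 ± 0.367 to 20.3 ± 0.464 FPKM (SD, n = 3), and its log2 fold change of 0.22 was 0.55 with median ratio scaling and did not pass with quantile normalization (adjusted p = 0.0593). CREBBP was at 10.9 ± 0.629 and 12.0 ± 0.337 (adjusted p = 0.0678), which passed with median ratio scaling (adjusted p = 3.57e-04).

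Other genes of the same functions were called in both directions. Of 124 genes in 8 lists by role, regulators included, 115 are listed and 111 were tested, of which 48 were higher, 44 lower and 19 neither, with a median log2 fold change of 0.11. These are 43.2% and 39.6% of the genes tested in the lists, where 26.8% and 51.8% of all genes tested were higher and lower. Under median ratio scaling 65 of the list genes were higher and 34 lower, where 38.2% and 37.8% of all genes tested were. The balance within the lists thus moved with the scaling, as did that of all genes. In the glutathione system outside GCLC and GCLM, 27 genes were tested, and 8 were higher and 16 lower (29.6% and 59.3%, near the 26.8% and 51.8% of all genes tested), with a median of -0.44. The counts were 11 and 12 under median ratio scaling, where 38.2% and 37.8% of all genes were higher and lower. They were 7 and 7 among genes averaging at least 5 FPKM, where the shares over all genes were 33.9% and 45.9%. GSS encodes glutathione synthetase, which acts after the ligase, and rose from 28.7 ± 0.728 to 74.8 ± 3.63 FPKM (SD, n = 3). MGST1, a microsomal transferase, rose from 0.487 ± 0.0910 to 3.25 ± 1.01. The transferases GSTA4 and GSTM2 fell from 13.4 ± 2.42 to 0.485 ± 0.0425 and from 2.59 ± 0.0404 to 0.0159 ± 0.00718 FPKM (SD, n = 3). GSTM genes are close copies of each other, so their values are uncertain to the extent that reads were shared. Of the lower genes of this list, GSTA4, GSTM1, GSTM2, GSTM4, GGT1 and GPX3 passed the filter on low values only through the control group. MGST1, called higher, passed it only through the shSETD2 group, so the counts depend in part on the filter.

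In the thioredoxin and peroxiredoxin system 14 genes were tested outside TXNRD1 and SRXN1, and 2 were higher and 11 lower (14.3% and 78.6%, against 26.8% and 51.8% of all genes tested), with a median of -1.0. PRDX5, a peroxiredoxin of mitochondria and peroxisomes, rose from 87.4 ± 3.03 to 220.7 ± 8.83 FPKM (SD, n = 3). PRDX1, a cytosolic substrate of sulfiredoxin, had 116.4, 108.8 and 115.6 FPKM in the control and 275.5, 268.0 and 153.1 in shSETD2 libraries 1, 2 and 3. It rose (log2 fold change 0.98, SE 0.22, adjusted p = 0.00637), and shSETD2 library 3 was the lowest of its group. TXNIP, an inhibitor of thioredoxin, fell from 15.2 ± 1.14 to 0.545 ± 0.0454 FPKM (SD, n = 3), and SESN3, a stress-induced sestrin, from 11.4 ± 0.149 to 0.0817 ± 0.0118. Under median ratio scaling 4 genes of this list were higher and 9 lower, where 38.2% and 37.8% of all genes were.

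NADPH, the reductant that TXNRD1 and glutathione reductase use, is supplied by a few dehydrogenases. Of 13 genes of this list, all tested, 6 were higher and 3 lower (46.2% and 23.1%, against 26.8% and 51.8% of all genes tested), with a median of 0.16. Under median ratio scaling 10 were higher and 3 lower, where 38.2% and 37.8% of all genes were. ME3, a malic enzyme of mitochondria, rose from 0.129 ± 0.0544 to 2.97 ± 0.163 FPKM (SD, n = 3). PGLS, an enzyme of the pentose phosphate pathway, fell from 12.5 ± 1.00 to 4.66 ± 0.460, and the mitochondrial IDH2 fell from 22.8 ± 1.96 to 7.12 ± 0.0985.

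Of 23 genes of quinone, carbonyl and xenobiotic metabolism and export, 18 are listed and 14 were tested, with 9 higher and 3 lower (64.3% and 21.4%, against 26.8% and 51.8% of all genes tested) and a median of 0.39. Among genes averaging at least 5 FPKM 5 were higher and 2 lower, where 33.9% and 45.9% of all genes so filtered were. With no filter 10 of the 18 were higher and 5 lower, where the shares over all genes were 25.2% and 51.1%. PTGR1, a reductase of reactive lipid aldehydes, was listed at 0 throughout the control group and gave 9.93, 9.53 and 9.45 FPKM with shSETD2. ABCC3, an exporter of conjugates, gave 0.0169, 0.0190 and 0 FPKM in control libraries 1, 2 and 3 and 6.12, 5.36 and 5.34 with shSETD2. Both, like NQO1, were under 1 FPKM in every control library. PTGR1, ABCC3 and OSGIN1 (0.192 and 5.85 FPKM) passed the filter on low values only through the shSETD2 group. Of the genes not tested, ABCG2 and ALDH3A1 were lower with shSETD2, and ABCC2 and AKR1C3 higher. The share of higher genes in this list thus depends in part on the filter. TRIM16L fell from 2.02 ± 0.337 to 0.920 ± 0.349 FPKM (SD, n = 3), which did not pass with quantile normalization (adjusted p = 0.16), and CBR1, a carbonyl reductase, fell from 19.7 ± 0.924 to 12.8 ± 0.564.

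Of 13 haem and iron genes tested, 9 were higher and 2 lower (69.2% and 15.4%, against 26.8% and 51.8% of all genes tested), with a median of 0.61. Among genes averaging at least 5 FPKM 9 were higher and 0 lower, where 33.9% and 45.9% of all genes so filtered were. SLC48A1, a haem transporter, had 2.53, 1.91 and 3.31 FPKM in the control and 47.1, 44.2 and 48.0 in the shSETD2 libraries. The groups did not overlap, and on the log2(FPKM + 1) scale its fold change was the highest of the 8 lists (log2 fold change 3.74, SE 0.14, adjusted p = 1.12e-06). FTH1, the heavy chain of the iron store ferritin, rose from 79.0 ± 12.3 to 300.0 ± 5.82 FPKM (SD, n = 3), although FTH1 has many processed pseudogenes that could take or give reads. ABCB6, a porphyrin transporter, and SLC40A1, the iron exporter ferroportin, fell from 2.50 ± 0.518 to 0.370 ± 0.0874 and from 1.28 ± 0.124 to 0.0674 ± 0.0445. These are the 2 lower genes of the list, and both passed the filter on low values only through the control group.

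Of 9 other antioxidant enzymes tested, 6 were higher and 2 lower (66.7% and 22.2%, against 26.8% and 51.8% of all genes tested), with a median of 0.78. Under median ratio scaling 7 were higher and 1 lower, where 38.2% and 37.8% of all genes were. Among genes averaging at least 5 FPKM 5 were higher and 1 lower, where the shares over all genes were 33.9% and 45.9%. SOD2, the mitochondrial superoxide dismutase and also a known target of NF-κB, rose from 2.54 ± 0.114 to 22.2 ± 2.39 FPKM (SD, n = 3), and CAT, catalase, from 7.34 ± 0.753 to 16.8 ± 0.218. MSRB2, a methionine sulfoxide reductase, fell from 5.62 ± 0.431 to 1.62 ± 0.112. SOD1 fell from 89.2 ± 3.89 to 73.1 ± 0.304, but with median ratio scaling its log2 fold change was 0.068 and did not pass (adjusted p = 0.178).

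Of the 5 genes of the ATF4 stress response, 2 were higher and 3 lower (40% and 60%, against 26.8% and 51.8% of all genes tested), with a median of -0.81. ATF4, which also drives SLC7A11, fell from 301.3 ± 2.52 to 171.9 ± 3.72 FPKM (SD, n = 3), and its log2 fold change of -0.81 was -0.45 with median ratio scaling. ATF3, a related stress factor, and ASNS, asparagine synthetase, fell from 28.4 ± 7.06 to 9.05 ± 3.56 and from 65.4 ± 5.46 to 30.8 ± 2.76. DDIT3, which encodes the stress factor CHOP, and TRIB3, a pseudokinase, rose from 10.6 ± 1.17 to 30.5 ± 5.90 and from 12.9 ± 0.377 to 42.0 ± 2.46.

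**Figure D4:**
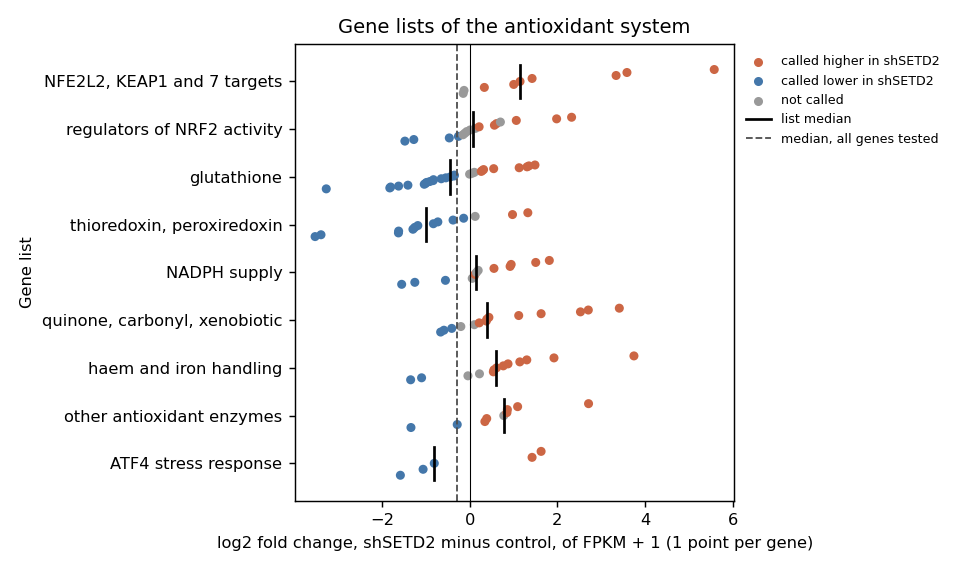
Log2 fold change of FPKM + 1 (shSETD2 minus control) of each gene tested in the 9 genes and in 8 lists by role, 1 point a gene, with a black line for the list median and a dashed line for the median of all genes tested (-0.29). The 9 genes have a median of 1.15, and the thioredoxin and peroxiredoxin list has a median of -1.0.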

How the data were processed

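RNA of 6 libraries, 3 control and 3 shSETD2, was sequenced by the authors. Reads were aligned by the authors to hg19, the build also called GRCh37, using Hisat2, expression was estimated with Ballgown, and one FPKM value per gene and library was deposited. Tool versions and the filter on listed genes are not given in the sources used here. A second deposited table holds the authors' own fold changes and p-values and was not used. FPKM holds no read number, so depth and counting error are unknown, and precision rests on the spread over 3 libraries. The labels gave the groups.

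The 14068 genes averaging at least 0.5 FPKM entered lmFit and trended eBayes of limma 3.58.1 in R 4.3.3 as log2(FPKM + 1), with Benjamini-Hochberg adjustment over these genes and a threshold of 0.05. The filter uses the mean of all 6 libraries, so a gene can pass it through 1 group alone. Of the pathway genes with FPKM given here, PTGR1, ABCC3, OSGIN1, ME3 and MGST1 passed through the shSETD2 group. BACH2, GSTA4, GSTM2, SESN3, ABCB6 and SLC40A1 passed through the control group. Single ratios were tested with an exact two-sided permutation test. The fit was first tested on simulated data. Gene names and positions are those of the deposited table, and GRCh37 sequence was read with GENCODE 44 transcripts. Named were all 9 genes, SETD2, all NRF2 regulators and ATF4 genes, and in each other list up to 2 genes of largest rise and fall, called and without overlap. For marker lists the summed level was given, with the 2 genes highest in each group. Some genes that this rule covers are left out of the text. The genes and lists were chosen with earlier results of these data known, and no set test was run. The alternatives were pseudocounts of 0.1 and 0.01, no filter or a mean of at least 5, median ratio, upper quartile and quantile scaling, no trend, an ordinary linear model, the replicate number as a block and each library left out. For the ratios they were each library left out and a pseudocount of 1 in both genes. Tables and figures used Python 3.11.15, pandas 2.3.3, scipy 1.17.1 and matplotlib 3.10.9.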

Additional observations from a re-analysis of the deposited data

How the results depend on the processing

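Of 143 log2 fold changes of the 9 genes under 16 alternatives, 136 kept their sign and their side of the threshold. NFE2L2 did not pass with an ordinary linear model (1.15, adjusted p = 0.0668) or without control library 3. GCLC turned sign with median ratio scaling (0.14) and quantile normalization (0.077), and was not tested at a mean FPKM of at least 5. SLC7A11 turned sign with median ratio scaling (0.21) and passed toward lower values with quantile normalization (-0.22), so that 1 of the 9 genes was then called lower. The causes were not tested. With 1 library left out, values ran from 0.74 to 1.37 for NFE2L2, from -0.20 to -0.091 for SLC7A11 and from -0.83 to -0.45 for SETD2, and 0 to 1 of the 9 genes were called lower. The replicate numbers did not pair the libraries (correlation of same-numbered deviations -0.024 to 0.018). With a replicate block, SETD2 passed (-0.58, adjusted p = 0.0156) and no call of the 9 genes changed, with 3733 of all genes higher and 7243 lower. At a mean FPKM of at least 5, where fewer genes are tested, 2401 of all genes were higher and 3246 lower (33.9% and 45.9%). Of the listed pathway genes 39 were then higher and 28 lower. Other genes also turned sign. With median ratio scaling the values were 0.22 for BACH1, 0.16 for CUL3, 0.073 for RBX1, 0.25 for SYVN1 and 0.068 for SOD1. With quantile normalization they were -0.029 for GSK3B and 0.017 for SYVN1, and with upper quartile scaling 0.013 for SYVN1. With 1 library left out, GSK3B ran from -0.043 to 0.050 and SYVN1 from -0.18 to 0.13. A pseudocount of 1 changed the ratio differences to 1.15 for GCLM over GCLC and 5.72 for NQO1 over GCLC. FPKM gives no read number, so the depth behind low values, such as NQO1 in the control libraries, is unknown.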
